A study of Mus musculus with 2 samples.

Results

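The miR-30 family was examined in the microvesicles (MVs) of mouse bone marrow mesenchymal stem cells (MSCs). MVs are membrane-bound particles that cells shed into the medium and that carry RNA and protein to other cells. Every array entry named for miR-30a, 30b, 30c, 30d, 30e or 30f was taken, both arms included, which gave 11 of the 831 mouse miRNA entries. These were 5 entries of the -5p arm and 6 of the -3p arm, and miR-30f was not analysed here. The rule uses names and no intensity threshold.

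The study compared 2 preparations, each hybridized to 1 miRCURY LNA array, a glass slide with locked nucleic acid probes that capture miRNAs. MSC-MVs came from MSCs grown in complete medium without erythropoietin (EPO), and EPO-MVs came from MSCs given 100 IU/ml EPO, the glycoprotein hormone that drives red cell formation. According to the labels and methods, both cultures lasted 48 h in a medium that held 10% fetal bovine serum, and the cells were primary wild-type MSCs of 4-week-old male C57BL/6 mice. The paper names this serum as a limitation and holds its influence on both MV types to be similar. The part of the serum in the values was not tested. The number of cultures or mice behind each RNA sample is not given in the sources used here. With 1 array per group no test was possible, and EPO, the preparation and the array cannot be told apart as sources of a difference. The values are relative to each array, so a different mix of MVs and a different miRNA content per MV cannot be told apart either.

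A miRNA hairpin is cut into a -5p and a -3p strand, and one of them is usually retained as the active guide. The guide finds its target messages mainly through its seed, bases 2 to 8. In the miR-30 family the -5p strands are the usual guides and have a common seed. They are abundant in kidney podocytes and tubules, where they are known to repress connective tissue growth factor and the transition of epithelial cells to mesenchymal cells. In bone marrow stromal cells they are known for repressing Runx2, the master regulator of bone formation.

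The -5p sequences are shown first because their common seed defines the family. They are mature sequences from RefSeq (GRCm38.p6), written 5′ to 3′ with the seed in capitals, and the table used held 7 of the 11 members.

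miR-30a-5p: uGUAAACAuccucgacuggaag

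miR-30c-5p: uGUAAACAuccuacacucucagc

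miR-30e-5p: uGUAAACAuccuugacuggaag

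The strands of miR-30a-5p and miR-30e-5p were the same at 21 of 22 bases and differed by C13U (miR-30a-5p base, position counted from the 5′ end, miR-30e-5p base). Each was the same as miR-30c-5p at 17 of the 22 bases compared. Of the other mature mouse miRNAs in the table, miR-384-5p had the same seed, and it was not analysed here. A probe may therefore bind more than 1 member, and this cross-hybridization was not tested.

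The -3p strands, the usual passenger strands, are shown because they fall into separate seed groups, also with the seed in capitals.

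miR-30a-3p: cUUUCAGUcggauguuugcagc

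miR-30e-3p: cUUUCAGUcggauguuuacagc

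miR-30c-1-3p: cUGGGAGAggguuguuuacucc

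miR-30c-2-3p: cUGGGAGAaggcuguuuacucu

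The pair miR-30a-3p and miR-30e-3p differed by G18A, counted in the same way with the miR-30a-3p base first. The pair miR-30c-1-3p and miR-30c-2-3p were the same at 19 of 22 bases and differed by G9A, U12C and C22U, with the miR-30c-1-3p base first.

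In RefSeq the family's 7 genes lie on 3 chromosomes. Mir30a and Mir30c-2 are on chromosome 1, and Mir30b and Mir30d are next to each other on chromosome 15, within 10000 bases. Mir30c-1, Mir30e and Mir30f lie within the transcription factor gene Nfyc on chromosome 4. The entry miR-30c-5p reads the product of both Mir30c-1 and Mir30c-2, whose -5p strands are identical, while their -3p strands have an entry each.

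The deposited values were normalized intensities on a linear scale. On each array they were whole multiples of the smallest value, called steps here. An intensity of 1 was 471 steps on the EPO-MV array and 447 steps on the other. Over all 831 entries, 211 had a ratio of EPO-MV to MSC-MV of at least 1.5 or at most its inverse (25.4%), 148 of them higher in EPO-MVs (17.8%) and 63 lower (7.58%). With quantile normalization that split was 95 higher and 95 lower, and with lowess it was 92 and 96. Because dim entries varied more, the entries were also divided into 4 groups by mean log2 intensity, and 61.1% of the dimmest 208 entries passed 1.5-fold against 8.65% of the brightest 208. Of the marker miRNAs of MSCs, all 10 on the array were in the brightest group and all had a ratio below 1, from 0.648 to 0.873, as did 62.98% of that group, and miR-143-3p passed 1.5-fold. Markers of blood cells had 7 entries, 4 of them in the brightest group and with ratios below 1. Among these miR-142-3p, found in blood cells, had an EPO-MV intensity of 44.0 and an MSC-MV intensity of 48.9, and miR-223-3p, a myeloid miRNA, had 13.6 and 20.7 (ratio 0.659, past 1.5-fold). The other 3 were dimmer and above 1, namely miR-150-5p (ratio 1.36), miR-486-5p (1.34) and miR-144-3p (1.75, past 1.5-fold). The list summed to 67.6 and 80.0, its median ratio was 0.921, and its part in the miR-30 values was not tested. Markers of other tissues had low intensities, at most 0.221 for 6 epithelial entries, 0.210 for 3 neural entries and 0.0170 for the hepatic miR-122-5p, except that the muscle miR-206-3p had 1.10 and 1.11 beside 0.0743 and 0.0694 for miR-1a-3p.

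All 5 -5p strands of the miR-30 family were dimmer in EPO-MVs than in MSC-MVs. Their ratios lay between 0.608 and 0.882, with a median of 0.841 (log2 ratio -0.25). The median log2 ratio was -0.12 with quantile normalization and -0.13 with lowess. Of them, miR-30b-5p passed 1.5-fold, and 7.69% of the brightest 208 entries did so as lower in EPO-MVs.

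For mmu-miR-30a-5p, known to repress the autophagy gene Beclin 1, the intensity was 3.92 with EPO and 4.67 without it (ratio 0.841). For mmu-miR-30c-5p, the product of 2 genes, it was 3.86 with EPO and 4.38 without it (ratio 0.882). For mmu-miR-30e-5p it was 3.38 with EPO and 3.99 without it (ratio 0.847). In these 3 the EPO-MV value was the lower one by a similar factor. For mmu-miR-30d-5p it was 1.25 with EPO and 1.50 without it (ratio 0.832). For mmu-miR-30b-5p it was 1.83 with EPO and 3.01 without it, a ratio of 0.608, or 1.64-fold lower in EPO-MVs. With the deposited values this was the lowest ratio among the 11 entries, and the neighbouring Mir30d gave 0.832. The ratio of miR-30c-2-3p was lower with quantile normalization (0.562 against 0.595 for miR-30b-5p) and with lowess (0.577 against 0.639).

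**Figure D1:**
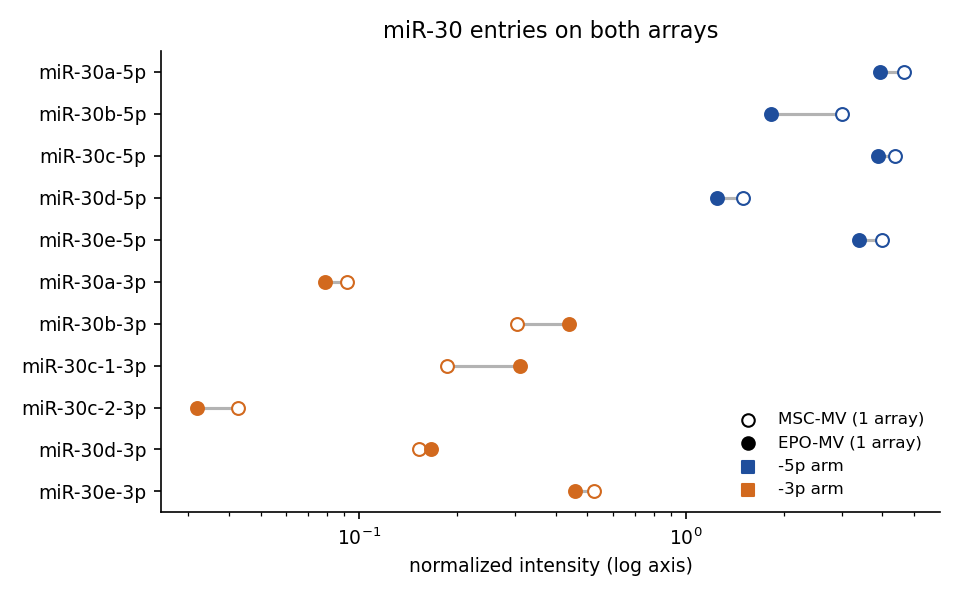
Normalized intensity (log axis) of the 11 miR-30 entries, with an open point for the MSC-MV array and a filled point for the EPO-MV array, joined by a grey line. The 5 -5p entries (blue) all have the filled point to the left, and among the 6 -3p entries (orange) 3 have it to the left and 3 to the right.

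The -5p entries had 588 to 1848 steps in EPO-MVs and 671 to 2086 steps in MSC-MVs, far from the smallest value of either array. All 5 were in the brightest group of entries. In that group 62.98% of the 208 entries had a ratio below 1 and the median log2 ratio was -0.09, so the direction of the -5p strands was also the commoner one among bright entries. Among the 80 bright entries that are -5p strands, 56 were below 1 and the median log2 ratio was -0.16. The ratio of miR-30b-5p was above that of 3.85% of the bright group. The ratios of the other 4 were above those of 29.8% to 36.1% of it.

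The -5p strands differed little among themselves apart from miR-30b-5p. Among the 10 pairs of -5p entries, the deposited ratios of miR-30a, 30c, 30d and 30e differed from each other by at most 1.06-fold. With quantile normalization these ratios ran from 0.903 (miR-30d-5p) to 0.984 (miR-30e-5p), and with lowess from 0.850 (miR-30d-5p) to 0.956 (miR-30c-5p). With the deposited values, the ratio of miR-30b-5p was lower than those of the other 4 by 1.37-fold (against miR-30d-5p) to 1.45-fold (against miR-30c-5p). With those values the near-identical strands miR-30a-5p and miR-30e-5p had the closest ratios, 1.01-fold apart. With quantile normalization they had 0.918 and 0.984, and miR-30d-5p, at 0.903, was closer to miR-30a-5p. A scale factor common to an array cancels in these comparisons, but no replicate gives their error.

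**Figure D2:**
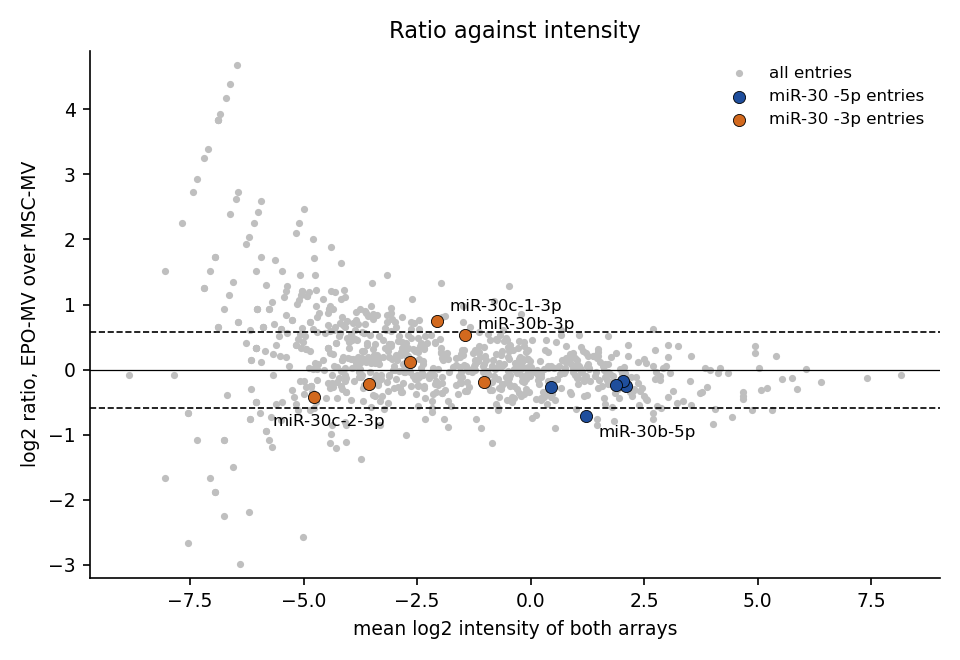
Log2 ratio, EPO-MV over MSC-MV (vertical), against the mean log2 intensity of both arrays (horizontal) for the 831 entries (grey), with miR-30 -5p entries in blue and -3p entries in orange; dashed lines mark 1.5-fold. The scatter widens toward dim entries, miR-30b-5p lies below the lower line at a log2 ratio of -0.72 and miR-30c-1-3p above the upper line at 0.74.

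The -3p strands did not share a direction. Of the 6 entries, 3 were higher and 3 lower in EPO-MVs, the median log2 ratio was -0.03, and 1 passed 1.5-fold. None was in the brightest group, and they had from 15 to 216 steps in EPO-MVs and from 19 to 234 steps in MSC-MVs.

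The entry past the threshold was miR-30c-1-3p, the passenger strand of the hairpin within Nfyc. Its intensity was 0.310 with EPO and 0.186 without it, or 146 and 83 steps, and its ratio was 1.67. Just short of the threshold was miR-30b-3p, at 0.439 with EPO and 0.304 without it (207 and 136 steps, ratio 1.44). Its ratio of steps was 1.52. Both entries were in the second brightest of the 4 groups, in which 9.66% of 207 entries passed 1.5-fold and 5.31% did so as higher in EPO-MVs.

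The remaining -3p strands stayed within 1.5-fold. For miR-30d-3p the intensity was 0.166 with EPO and 0.152 without it (ratio 1.09). For miR-30e-3p it was 0.459 with EPO and 0.523 without it (ratio 0.876). For miR-30a-3p it was 0.0786 with EPO and 0.0917 without it (ratio 0.856). These last 2, whose printed sequences have the seed UUUCAGU, were both below 1. The sequences of miR-30b-3p and miR-30d-3p were not in the table used, so their seeds were not compared with this one. The dimmest member, miR-30c-2-3p, had 0.0318 with EPO and 0.0425 without it, only 15 and 19 steps, and a ratio of 0.749. Rounding to whole steps alone allows 0.706 to 0.795 for this ratio, which covers no other error.

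In all, 2 of the 11 miR-30 entries passed 1.5-fold (18.2%), 1 in each direction, beside 25.4% of all entries. That share is carried by dim entries. Above the median intensity, where 8 of the members lie, 2 of 8 passed it beside 9.16% of 415 entries. Among entries that reached 30 steps in both preparations, 2 of 10 members did beside 10.8% of 573. Of the 11 entries 8 were below 1 (72.7%), against 43.9% of all 831, 54.9% of those above the median intensity and 62.98% of the brightest group. The median log2 ratio was -0.22 over the family, 0.05 over all entries and -0.09 over the brightest group.

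The arms of a hairpin leave the same precursor, so the ratios of both arms were set side by side. For miR-30a the arms were 1.02-fold apart and for miR-30e 1.03-fold apart, each with both arms lower in EPO-MVs. For miR-30d they were 1.31-fold apart, with the -5p arm below 1 and the -3p arm above it. For miR-30b the -5p arm had a ratio of 0.608 and the -3p arm one of 1.44, so that the arms were 2.38-fold apart in opposite directions. Opposite directions were also seen for miR-30c-1, whose -3p arm at 1.67 was 1.89-fold above the shared -5p entry at 0.882. For miR-30c-2 the -3p arm, at 0.749, was below that entry, by a log2 difference of -0.23.

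A common factor cancels in these gaps, but scalings that depend on intensity moved the small ones. With quantile normalization and lowess, the gap of miR-30b was 2.29-fold and 2.20-fold and that of miR-30c-1 was 1.70-fold and 1.66-fold, both still with the -3p arm above 1 and the -5p arm below it. The gap of miR-30c-2 widened to 1.68-fold and 1.66-fold, and with the pseudocount it was 1.01-fold with the -3p arm as the higher one. For miR-30a the gap turned, to 1.23-fold and 1.25-fold with the -3p arm as the lower one, and for miR-30e it turned likewise, to 1.17-fold and 1.05-fold. For miR-30d it shrank to 1.11-fold and 1.18-fold, and the -3p ratio was 1.00 under both.

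The hairpins of miR-30c-1 and miR-30c-2 are printed here because they give the same -5p strand and -3p strands with unlike ratios. Both are from RefSeq (GRCm38.p6), 5′ to 3′, from the minus strand of chromosome 4 and the plus strand of chromosome 1, with the -5p and then the -3p strand in capitals.

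Mir30c-1: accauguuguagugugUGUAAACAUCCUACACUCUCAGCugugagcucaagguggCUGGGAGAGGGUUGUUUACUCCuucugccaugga

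Mir30c-2: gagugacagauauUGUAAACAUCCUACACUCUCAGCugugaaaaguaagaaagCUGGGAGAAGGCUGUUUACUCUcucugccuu

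The log2 ratio of miR-30c-1-3p was 0.74 and that of miR-30c-2-3p was -0.42, a difference of 1.16. How much each gene added to the shared miR-30c-5p entry cannot be read from the array.

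Gaps between arms were common elsewhere on the array, mostly among dim entries. Of 219 other hairpins whose arms have entries with the same name stem, 83 had arms at least 1.5-fold apart (37.9%). Where all 4 values reached 30 steps, 13 of 100 other hairpins did (13.0%), and 43.0% had arms on opposite sides of 1. Another 18 hairpins at this level share an arm entry with a gene copy, as the miR-30c hairpins do, and 5 of these had arms at least 1.5-fold apart. Among all 123 hairpins at this level, 5 of them of the miR-30 family, the gap of miR-30b was the widest with the deposited values and that of miR-30c-1 ranked 5. The gap of miR-30d ranked 43, that of miR-30e 108 and that of miR-30a 118. With quantile normalization and with lowess the gap of miR-30b was again the widest, and that of miR-30c-1 ranked 12. Under these 2 scalings, in this order, miR-30d ranked 80 and 63, miR-30e 66 and 100, and miR-30a 51 and 52. For 22 other hairpins of the same name stem, the -5p strand was in the brightest group and the -3p strand in the 2 middle groups. Most miR-30 hairpins were placed likewise. Of these 22, 2 had arms at least 1.5-fold apart, both with the higher ratio on the -3p side, beside 2 of the 6 miR-30 hairpins. The -3p ratio was the higher one in 15 of the 22 and in 5 of the 6. Arms lay on opposite sides of 1 in 45.5% and 50% of them. The median log2 difference, -3p minus -5p, was 0.22 in both sets.

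**Figure D3:**
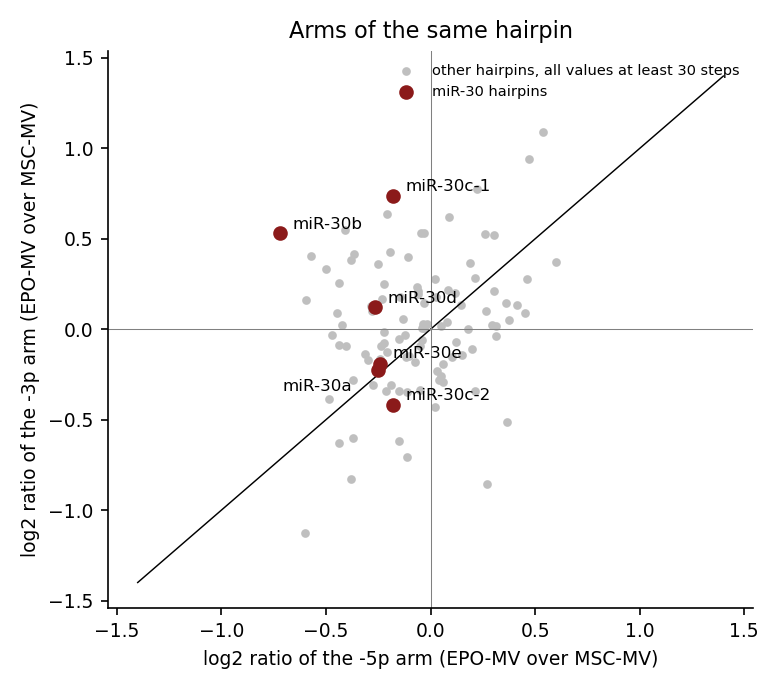
Log2 ratio of EPO-MV to MSC-MV for the -3p arm (vertical) against the -5p arm (horizontal) of each hairpin, with 6 miR-30 hairpins in red and 100 other hairpins of the same name stem with at least 30 steps in all values in grey; the diagonal marks equal ratios. With the deposited values, miR-30a and miR-30e lie near the diagonal, and miR-30b (-0.72 and 0.53) and miR-30c-1 (-0.18 and 0.74) lie well above it.

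The ratios were also set side by side by the place of the genes. On chromosome 15, the -5p strands of miR-30b and miR-30d had ratios of 0.608 and 0.832 and the -3p strands 1.44 and 1.09. Within Nfyc, miR-30e-5p had 0.847 and miR-30e-3p 0.876, beside 1.67 for miR-30c-1-3p. On chromosome 1, miR-30a-3p had 0.856 and miR-30c-2-3p 0.749.

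Other bright guide families had ratios of the same direction. All 9 entries of the let-7 and miR-98 -5p strands, a family that restrains growth and developmental genes, were below 1, with ratios from 0.578 to 0.854, a median log2 ratio of -0.40 and 2 entries past 1.5-fold, beside 7.69% of the bright group past it as lower. The 3 miR-29 -3p strands, which repress collagen genes, had ratios from 0.563 to 0.904, a median of -0.41 and 1 entry past the threshold. The miR-30 -5p strands, at a median of -0.25 with 1 of 5 past it, lay between these families and the bright group as a whole with the deposited values. With quantile normalization the medians were -0.12 for miR-30, -0.23 for let-7 and miR-98, -0.074 for miR-29 and 0 for the bright group, so the order of miR-30 and miR-29 turned. With lowess they were -0.13 for miR-30, -0.28 for let-7 and miR-98, -0.20 for miR-29 and 0.012 for the bright group. There miR-30 again lay between these families and the bright group. These differences between families were not tested.

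**Figure D4:**
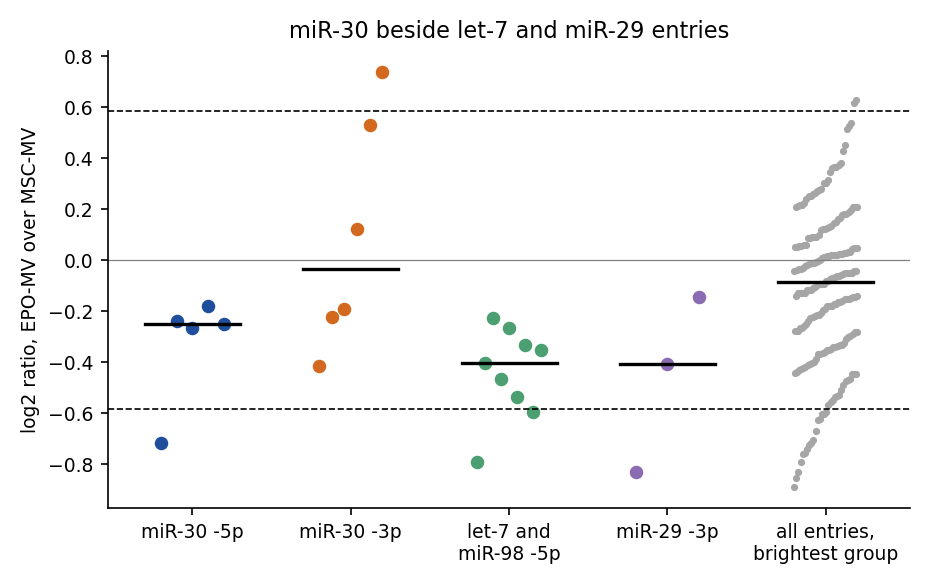
Log2 ratio of EPO-MV to MSC-MV (vertical), 1 point per entry, for the miR-30 -5p and -3p strands, the let-7 and miR-98 -5p strands, the miR-29 -3p strands and the 208 entries of the brightest group; the bars are medians, the dashed lines mark 1.5-fold and the sideways spread of points has no meaning. The medians are -0.25, -0.03, -0.40, -0.41 and -0.09 in this order.

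The entries of the bright group outside the family with the log2 ratio nearest to the -5p median were miR-181a-5p (ratio 0.836), let-7g-5p (0.832) and let-7i-5p (0.854). With 2 arrays a pattern is a single ratio, and 35 entries of the bright group lay within 0.1 of that median on the log2 scale.

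The miR-30 family is one of several miRNA groups with known roles in kidney fibrosis, and a list of 18 others was examined beside it. Of these, 15 had an entry, 5 passed 1.5-fold as higher in EPO-MVs, 1 passed it as lower, and the median ratio was 0.904. Over all entries the shares were 17.8% and 7.58%. The lower one was miR-29a-3p, an antifibrotic miRNA, with 12.1 with EPO and 21.5 without it. The 5 higher ones were dim, with at most 68 steps on either array, and 4 of them, all but miR-200b-3p, were in the dimmest group, in which 61.1% of entries passed 1.5-fold. They were miR-200b-3p (ratio 1.50, for which rounding to whole steps alone allows 1.47 to 1.53, with 1.45 after re-centring on all entries, 1.33 with quantile normalization, 1.34 with lowess and 1.31 with the pseudocount), miR-200c-3p (2.85) and miR-141-3p (1.90), which maintain the epithelial state, with miR-192-5p (6.64, where the MSC-MV value was a single step, its lower limit) and miR-324-3p (5.54). The profibrotic miR-21a-5p had 78.9 with EPO and 90.3 without it, a ratio of 0.873 that was close to those of most miR-30 -5p strands.

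Under 7 other scalings of the arrays, including 2 chosen after the values were seen, the 5 -5p strands kept ratios below 1. The log2 ratio of miR-30b-5p ranged from -0.77 to -0.63 and stayed past 1.5-fold. That of miR-30e-5p came closest to 0, at -0.02 with quantile normalization. For miR-30c-1-3p the range was 0.60 to 0.83, also past 1.5-fold throughout. The dim miR-30c-2-3p passed 1.5-fold as lower in EPO-MVs with quantile normalization (ratio 0.562) and lowess (0.577). The entry miR-30b-3p passed it as higher with the ratio of steps (1.52) and after re-centring on the bright group (1.53).

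**Figure D5:**
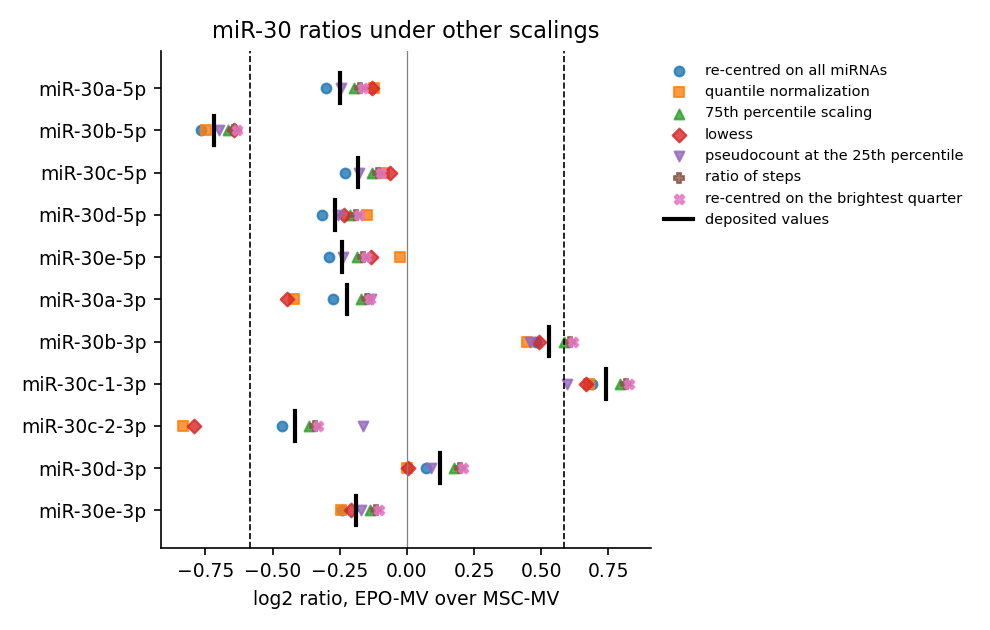
Log2 ratio of EPO-MV to MSC-MV (horizontal) of each miR-30 entry with the deposited values (black bars) and under 7 other scalings (symbols); dashed lines mark 1.5-fold. The symbols of miR-30b-5p stay left of the lower line and those of miR-30c-1-3p right of the upper line.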

How the data were processed

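According to the labels and methods, MVs were collected by ultracentrifugation, and their RNA was labelled with Hy3, hybridized, scanned with an Axon GenePix scanner and read with GenePix Pro. The authors averaged replicate spots, based the normalization factor on miRNAs that reached 30 in each sample, and deposited median-normalized intensity values. The channel read, any background correction and the selection of entries are not given in the sources used here. The number of arrays limits the precision.

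From the intensities, EPO-MV was divided by MSC-MV with no pseudocount or filter, and 1.5-fold, the fold filter used by the study, was the threshold. No p-value was computed. Values were whole multiples of a step to within 0.0001 of a step. The counting code was tested on simulated data with planted ratios and no noise, which does not measure the error of the arrays. Every miR-30 entry is named, with lists of marker and fibrosis miRNAs and the 3 most similar bright entries. The members and lists were chosen with earlier results of these data known. The 9 set alternatives were thresholds of 2 and 1.2, entries above the median intensity, at least 30 steps on both arrays, re-centring on all entries, quantile normalization, scaling to the 75th percentile, lowess (span 0.4, 3 iterations) and adding the 25th percentile (0.0573) as a pseudocount. Another 2, the ratio of steps and re-centring on the brightest group, were added later. RefSeq mature sequences (GRCm38.p6) were matched by name to 680 of 831 entries (81.8%). The deposited values name no build, so no coordinates are given. Calculations used Python 3.11.15, pandas 2.3.3, numpy 2.4.6, statsmodels 0.14.6 and matplotlib 3.10.9.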

Additional observations from a re-analysis of the deposited data

How the results depend on the processing

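The count of miR-30 entries past the threshold, 2 with the deposited values, was 0 at 2-fold and 5 at 1.2-fold, where the count over all entries was 88 and 460, as the threshold itself sets. Over all entries the count was 38 above the median intensity, 62 with at least 30 steps on both arrays and 54 with the pseudocount, which leave out or shrink dim entries by construction. It was 2 or 3 miR-30 entries under every alternative that kept 1.5-fold. The median log2 ratio of the -5p strands, -0.25, became -0.30 after re-centring on all entries, -0.12 with quantile normalization, -0.20 with 75th percentile scaling, -0.13 with lowess, -0.17 for the ratio of steps and -0.16 after re-centring on the brightest group. The median of the -3p strands, -0.034, is near 0 and turned to 0.53 above the median intensity (3 entries), 0.12 with at least 30 steps (5 entries), 0.019 with 75th percentile scaling, 0.041 for the ratio of steps and 0.052 after re-centring on the brightest group. It was -0.084 after re-centring on all entries, -0.12 with quantile normalization, -0.10 with lowess and -0.022 with the pseudocount. Except where the construction shows it, the cause was not tested. Dim entries cannot be set against a background, which the deposited values do not hold. No paired analysis was possible because each group had 1 array.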
